A study of Caenorhabditis elegans with 3 samples.

Results

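The genes described here are 10 genes of the germline small RNA pathways of the nematode Caenorhabditis elegans: prg-1, csr-1, ego-1, drh-3, ekl-1, wago-1, mut-7, mut-16, rde-2 and rde-3. They were taken by name from the annotation of the array, and a value on all 3 arrays was required. Each gene had 1 probe with such values, so all 10 are described, out of 15078 genes measured on all arrays. The samples were 3 preps of RNA from hermaphrodites at an early point of young adulthood (YA 1), each hybridised in channel 2 of a two-colour DNA microarray against a mixed wild-type mRNA reference in channel 1, and the preps form 1 group. No strain, age in hours, treatment or makeup of the reference is given in the sources used here, nor whether the preps came from separate cultures. The p-values therefore cover the variation among the preps alone, and it may be technical.

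In the worm germline, Argonaute proteins carry short antisense RNAs that recognise transcripts. The PIWI protein PRG-1 carries piRNAs, which mark foreign or unwanted transcripts. RNA-dependent RNA polymerases copy transcripts into secondary small RNAs. Some of these are loaded onto worm-specific Argonautes such as WAGO-1 for silencing. Others are loaded onto CSR-1, which is linked to expressed germline genes. The Mutator proteins gather in foci beside P granules at germ cell nuclei and are needed for the amplification of the silencing small RNAs.

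Each value below is a log2 ratio whose direction is likely worms over reference. That direction rests on the labels, which name the worms against the reference, and on the adult cuticle collagen gene col-19, at 2.60 ± 0.06 (SD, n = 3). Of the other collagen genes used as hypodermis markers below, col-7 and col-62 were also above 0. dpy-7 and rol-6 were below it, at −1.49 and −2.46. The dyes are not given, and the opposite orientation would turn each "above" into "below". The arrays had values for 19742 to 19914 of 20000 probes, with medians of 0.01 to 0.02, and the number of arrays limits the precision. Over probes, preps 2 and 3 correlated at r = 0.91, and prep 1 correlated with preps 2 and 3 at 0.80 and 0.77. A ratio gives no level, so the order of the genes is an order of ratios. In whole worms, more cells of a type and more RNA per cell cannot be told apart.

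The comparison asks which of these genes stood above or below the mixed reference in early young adults. Of the 10 genes, 9 were above the reference and 0 below at an adjusted p of 0.05 (limma with Benjamini-Hochberg adjustment over all genes), and rde-2 did not pass. At an unadjusted p of 0.05 the counts were 10 above and 0 below, against 3797 above and 3872 below among all 15078 genes. After adjustment, 21.7% of all genes were called above and 22.2% below. The median of the 10 mean log2 ratios was 0.98, against 0.00 for all genes, and their range was 0.33 to 1.58. All 30 single-array values lay above 0. The same sign on all arrays was seen for 66.3% of all genes, a share that also counts genes below 0 on all arrays. Of the 10 genes 5 had a mean of at least 1, against 5.80% of all genes.

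**Figure D1:**
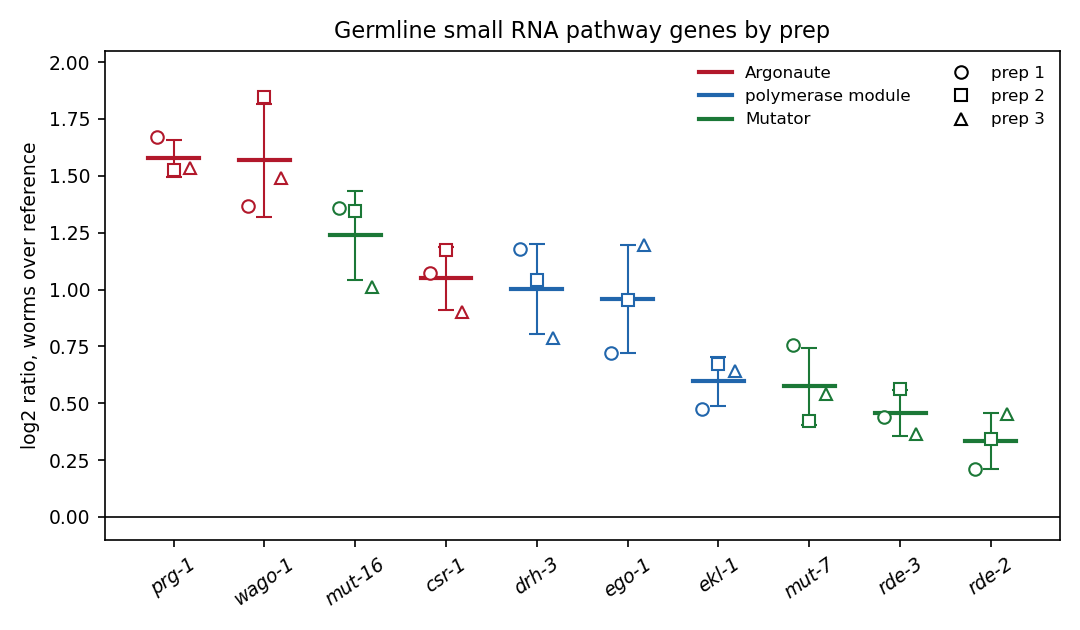
Log2 ratios of worms over reference (vertical axis) for each of the 10 genes, ordered by mean. Open symbols are the 3 preps, the thick line is their mean, the thin bar is ± 1 SD (n = 3), and the colour gives the role. All values lie above 0, from 0.21 for rde-2 in prep 1 to 1.85 for wago-1 in prep 2.

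The Argonaute genes prg-1, wago-1 and csr-1 were at or near the top. prg-1 had log2 ratios of 1.67, 1.53 and 1.53 in preps 1, 2 and 3, a mean of 1.58 ± 0.08 (SD, n = 3). This was 2.98-fold above the reference (95% interval 2.44 to 3.65, limma adjusted p = 1.94e-05). Its SD was the smallest among the 10 genes, and 98.4% of all genes had a lower mean ratio. wago-1, whose protein binds secondary small RNAs and silences transposons and some genes, was at 1.37, 1.85 and 1.49 in preps 1, 2 and 3. Prep 2 stood highest, and the SD of 0.25 was the largest among the 10 genes. The mean of wago-1 was 1.57, which is 2.97-fold above the reference (95% interval 2.37 to 3.71, limma adjusted p = 3.57e-05). prg-1 and wago-1 differed by 0.01 ± 0.31 (SD of the paired difference, n = 3), with prg-1 higher on 2 of the arrays and lower in prep 2, so they were not ordered beyond their spread.

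csr-1, the Argonaute gene on chromosome IV, had log2 ratios of 1.07, 1.17 and 0.90 in preps 1, 2 and 3. Its mean of 1.05 ± 0.14 (SD, n = 3) was 2.07-fold above the reference (95% interval 1.68 to 2.55, limma adjusted p = 2.3e-04). On every array csr-1 was lower than both other Argonaute genes, whose lowest single value was 1.37. The mean ratio of the 3 Argonaute genes was 1.37, 1.52 and 1.31 in preps 1, 2 and 3, or 1.40 ± 0.11 (SD, n = 3).

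The next group makes the secondary small RNAs. EGO-1 is the germline RNA-dependent RNA polymerase, DRH-3 a Dicer-related helicase and EKL-1 a Tudor-domain protein, and both partners work with the polymerase. drh-3 had log2 ratios of 1.18, 1.04 and 0.79 in preps 1, 2 and 3, a mean of 1.00 ± 0.20 (SD, n = 3; limma adjusted p = 3.72e-04). ego-1 had 0.72, 0.96 and 1.19, a mean of 0.96 ± 0.24 (SD, n = 3; limma adjusted p = 5.62e-04). The pair had almost the same mean but the opposite order over the preps, with drh-3 lowest and ego-1 highest in prep 3, and their paired difference was 0.05 ± 0.43 (SD, n = 3).

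ekl-1 was lower, at 0.47, 0.67 and 0.64 in preps 1, 2 and 3. Its mean of 0.60 ± 0.11 (SD, n = 3) was 1.51-fold above the reference (95% interval 1.23 to 1.86, limma adjusted p = 0.00487). The call of ekl-1 was lost without prep 2 (0.56, limma adjusted p = 0.055), against a margin of 1.2-fold (adjusted p = 0.0559) and with the median of each block of 400 consecutive probes subtracted (0.36, adjusted p = 0.0621). On every array ekl-1 lay below ego-1, by 0.36 ± 0.17 (SD of the paired difference, n = 3). The mean of the 3 genes was 0.79, 0.89 and 0.87 in preps 1, 2 and 3, or 0.85 ± 0.05 (SD, n = 3).

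The Mutator genes spanned the widest range of the 3 roles, from 0.33 to 1.24. mut-16, which encodes the scaffold of the Mutator foci, had log2 ratios of 1.36, 1.35 and 1.01 in preps 1, 2 and 3. Its mean of 1.24 ± 0.20 (SD, n = 3) was 2.36-fold above the reference (95% interval 1.90 to 2.93, limma adjusted p = 1.1e-04). On every array mut-16 lay above csr-1 and below wago-1, though below wago-1 by only 0.01 in prep 1. It was also above the other 3 Mutator genes on every array, the highest of whose values was 0.76.

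mut-7, which encodes an exoribonuclease, had 0.76, 0.42 and 0.54 in preps 1, 2 and 3, a mean of 0.57 ± 0.17 (SD, n = 3; limma adjusted p = 0.00717). It did not pass against a margin of 1.2-fold (adjusted p = 0.0789). rde-3, also known as mut-2, encodes a nucleotidyltransferase that adds tails to targeted RNAs. It had 0.44, 0.56 and 0.36, a mean of 0.46 ± 0.10 (SD, n = 3; limma adjusted p = 0.0184). That call was lost without prep 2 (0.40, adjusted p = 0.197), without prep 3 (0.50, adjusted p = 0.0692) and with each chromosome centred on its median (0.29, adjusted p = 0.114), and also with blocks of probes centred (0.31, adjusted p = 0.0854) and against a margin of 1.2-fold (adjusted p = 0.231).

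rde-2, also known as mut-8, encodes a partner of MUT-7. It had 0.21, 0.34 and 0.45 in preps 1, 2 and 3, a mean of 0.33 ± 0.12 (SD, n = 3) with a 95% interval of 0.04 to 0.63 on the log2 scale. It did not pass after adjustment (limma adjusted p = 0.067), although it passed without prep 1 (0.40, adjusted p = 0.0219). rde-2 and mut-7, whose proteins bind each other, thus overlapped in their single values, 0.21 to 0.45 against 0.42 to 0.76. The mean of the 4 Mutator genes was 0.69, 0.67 and 0.59 in preps 1, 2 and 3, or 0.65 ± 0.05 (SD, n = 3).

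By the mean of each role among the 10 genes, Argonautes stood above the polymerase module and the polymerase module above the Mutator genes on every array. mut-16 broke this order as a single gene, since it lay above csr-1 and the whole polymerase module in its mean. The fuller lists described below did not keep the order of the last 2 roles. The measured polymerase genes and partners had means of 0.13, 0.46 and 0.53 in preps 1, 2 and 3. Those of the Mutator list were 0.60, 0.53 and 0.37, so the polymerase list was higher in prep 3 alone. Of the 45 pairs among the 10 genes, 36 kept the same order on all arrays. Among the 9 pairs of neighbours in the order of means, only 3 did: wago-1 over mut-16, mut-16 over csr-1 and ego-1 over ekl-1. For wago-1 over mut-16 the paired difference was 0.33 ± 0.28 (SD, n = 3), and only 0.01 in prep 1. The gap was larger than the larger SD of the pair for wago-1 over mut-16, for ego-1 over ekl-1 and just so for rde-3 over rde-2, but the last pair changed order in prep 3. The widest gap between neighbours, 0.36, lay between ego-1 and ekl-1. The single values of ego-1 and ekl-1 did not overlap, the lowest of ego-1 being 0.72 and the highest of ekl-1 0.67. The genes above and below that gap were still not apart on every array, since mut-7 at 0.76 was above ego-1 at 0.72 in prep 1.

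**Figure D2:**
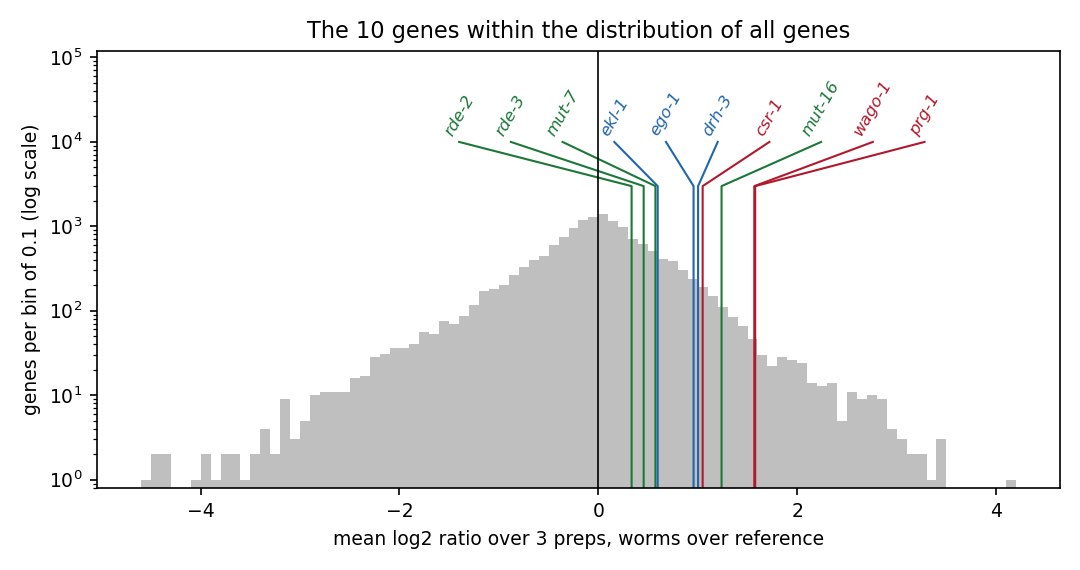
Mean log2 ratio over the 3 preps (horizontal axis) of all 15078 genes, as a histogram with bins of 0.1 and a log scale for the count. Coloured lines mark the 10 genes, which lie from 0.33 to 1.58. All are on the side above the reference but short of its upper edge, with 240 genes above prg-1.

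Within the whole array the 10 genes were above the middle but not at its edge. prg-1 ranked 241 and wago-1 ranked 249 of 15078 genes from the top, and mut-16 ranked 489. rde-2 ranked 3752, with 24.9% of all genes above it. The SDs of the 10 genes over the preps ran from 0.08 to 0.25, with a median of 0.15, against a median of 0.22 for all genes.

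The 3 preps gave close values for the 10 genes as a group. Their median was 0.92, 1.00 and 0.84 in preps 1, 2 and 3, against medians of 0.01, −0.02 and 0.00 for all genes. Of the 10 genes, 4 were highest in prep 1, 4 in prep 2 and 2 in prep 3, against 44.3%, 28.2% and 27.4% of all genes. Markers of germ cells differed more between preps. The mean of 7 sperm markers was 0.82, 1.10 and 1.44 in preps 1, 2 and 3, and that of 6 oocyte markers was 1.38, 1.33 and 1.00. For 7 markers of the meiotic germline it was 0.89, 1.18 and 0.77, and for the 10 genes 0.92, 0.99 and 0.89, both highest in prep 2 and lowest in prep 3. ego-1 and rde-2 were highest and drh-3, mut-16, csr-1 and rde-3 lowest in prep 3, where the sperm markers were highest and the oocyte markers lowest. Of all genes, 27.4% were highest and 33.1% lowest in prep 3, so these counts among the 10 were near the shares over the array. Whether these marker shifts bear on the 10 genes was not tested.

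Germ cell markers stood above the reference beside the 10 genes. Of 6 measured oocyte markers 6 were above, with means from 0.56 to 1.82, among them the yolk receptor gene rme-2 at 1.78 ± 0.42 (SD, n = 3). Of 7 markers of the meiotic germline 6 were above and 1 did not pass, with means from 0.22 to 1.71. Of 7 sperm markers 6 were above and 1 did not pass, with means from 0.28 to 2.04. Their medians of 1.27, 0.88 and 1.07 bracket the median of 0.98 of the 10 genes. Of 6 measured neuron markers 0 were above and 4 below, and of 5 measured body muscle markers 1 was above and 0 below, with medians of −0.53 and 0.20. Of 5 measured intestine markers 3 were above and 1 below, and of 4 measured markers of early embryos 0 were above and 2 below. Of 5 collagen genes of the hypodermis, the adult genes col-7, col-19 and col-62 were above the reference. The other collagen genes, dpy-7 and rol-6, were below at −1.49 ± 0.50 and −2.46 ± 0.68 (SD, n = 3). The part of the germ cell markers' difference in the values of the 10 genes was not tested.

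**Figure D3:**
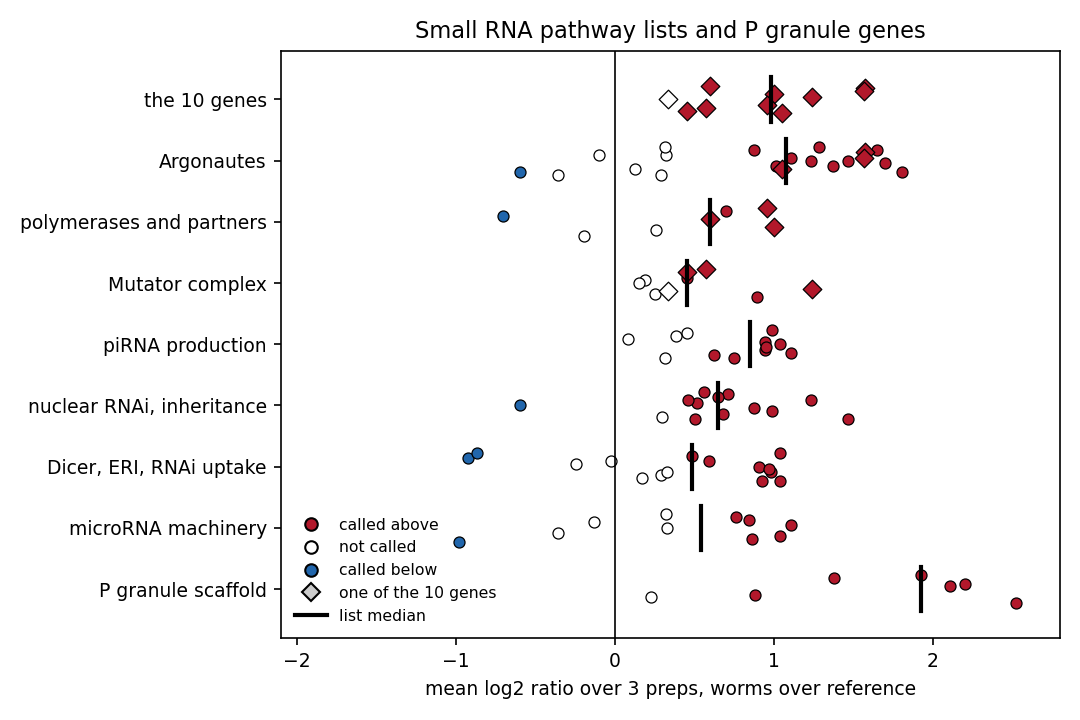
Mean log2 ratio over the 3 preps (horizontal axis) of the 10 genes, the small RNA pathway lists and the P granule genes. Red points were called above the reference, blue points below and white points were not called, diamonds are the 10 genes, and black bars are list medians. The 10 genes have a median of 0.98, and the genes called below the reference, such as nrde-3 and drh-2, lie in the lists of Argonautes, polymerase partners, nuclear RNAi, RNAi uptake and microRNAs.

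Other genes of the small RNA pathways were set beside the 10. Of 81 such genes 68 were measured, and of these 41 were above the reference and 5 below, while 22 did not pass, with a median log2 ratio of 0.61. That share of 60.3% called above compares with 21.7% of all genes. Of the 68, 3 had a higher mean than prg-1, and all of them are Argonaute genes.

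Among 20 measured Argonaute genes, the 3 described above included, 13 were above the reference and 1 was below, while 6 did not pass, with a median of 1.08. The highest was wago-5 at 1.81 ± 0.21 (SD, n = 3). prg-2, the close paralog of prg-1, was at 1.70 ± 0.16, and wago-2, a relative of wago-1, at 1.65 ± 0.16. Since prg-1 and prg-2 are similar in sequence, and wago-1 and wago-2 likewise, their probes may share signal and the value of each is uncertain. wago-4, which acts in the inheritance of RNA interference, was at 1.47 ± 0.48. alg-3 and alg-4, which act in sperm development, were at 1.37 ± 0.27 and 1.29 ± 0.63. hrde-1, the nuclear Argonaute of the germline, was at 1.23 ± 0.70, with 1.98 in prep 1 and 0.60 in prep 3. alg-5, sago-2 and ergo-1 were above at 1.11 ± 0.37, 1.01 ± 0.05 and 0.87 ± 0.21.

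The Argonaute genes that did not pass had means from −0.36 to 0.32. They were the microRNA Argonaute genes alg-2 at 0.32 ± 0.24 and alg-1 at −0.36 ± 0.28 (SD, n = 3), vsra-1 at 0.31 ± 0.33, wago-10 at 0.13 ± 0.09, and rde-1, the Argonaute gene of RNA interference by added double-stranded RNA, at 0.29 ± 0.12. sago-1 was at −0.10 ± 0.16, a sign that turned with blocks of probes centred (0.10). rde-1 passed with blocks of probes centred (0.41, limma adjusted p = 0.0251) and with chromosomes centred (0.38, adjusted p = 0.0408). Only nrde-3, which carries small RNAs into nuclei of somatic cells, was below the reference, at −0.88, −0.38 and −0.54 in preps 1, 2 and 3 (limma adjusted p = 0.008). That call was lost against a margin of 1.2-fold (adjusted p = 0.076). The single values of nrde-3 and of its germline counterpart hrde-1 did not overlap. nrde-3 and alg-1, which had the lowest means of the 20, lie on chromosome X, whose genes had a median log2 ratio of −0.22.

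Of 7 measured polymerase genes and partners, the 3 described above included, 4 were above the reference and 1 below, or 2 above without prep 2. Over the whole array, 3278 genes were above with all preps and 2277 without prep 2. rrf-3, the polymerase of the ERI complex, was at 0.70 ± 0.30 (SD, n = 3; limma adjusted p = 0.00461), a call lost without prep 2 (0.55, adjusted p = 0.0589). drh-1, a helicase gene of antiviral defence, was at −0.19 ± 0.13 and did not pass. drh-2 was below the reference at −0.71 ± 0.21 (limma adjusted p = 0.00277). Every value of drh-3, the lowest being 0.79, was above every value of drh-1 and drh-2, the highest being −0.11. drh-1 and drh-2 resemble each other in sequence, so their probes may share signal. rrf-2 was at 0.26 ± 0.76 over 2 probes that disagreed, with means of 0.78 and −0.26. It passed without prep 1 (0.66, limma adjusted p = 0.00668), and its mean turned to −0.10 without prep 3. rrf-1, which lies next to ego-1 on the chromosome, was not analysed here.

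Of 9 measured genes of the Mutator complex and its foci, the 4 described above included, 5 were above the reference and 0 below, or 3 above without prep 2, with a median of 0.45. mut-14, a helicase gene, was above at 1.49, 0.69 and 0.50 in preps 1, 2 and 3 (limma adjusted p = 0.00412), with prep 1 far from the others. mut-15 was above at 0.45 ± 0.21 (SD, n = 3; limma adjusted p = 0.0253), a call lost without prep 2 (0.46, adjusted p = 0.124) and against a margin of 1.2-fold (adjusted p = 0.267). smut-1, the paralog of mut-14, was at 0.25 ± 0.12 and passed only with blocks of probes centred (0.39, adjusted p = 0.0296). nyn-1 and the endoribonuclease gene rde-8 were at 0.19 ± 0.29 and 0.15 ± 0.21 and did not pass. mut-16 had the highest mean of the 9, and all of its single values were above those of the other genes except mut-14, whose value in prep 1 was higher.

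The steps before and after the 10 genes were also mostly above the reference. Of 12 measured genes listed under piRNA production 8 were above and 0 below, with a median of 0.85. snpc-4, which drives transcription of piRNA genes, was at 1.11 ± 0.09 and tofu-2 at 1.04 ± 0.14 (SD, n = 3). tost-1, whose part in piRNA production was not examined here, was at 0.31 ± 0.10 and passed only without prep 1 (0.34, limma adjusted p = 0.0465). henn-1, the methyltransferase gene for piRNA ends, was at 0.08 ± 0.13 and did not pass, and its sign turned with blocks of probes centred (−0.05) and chromosomes centred (−0.06).

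Of 13 measured genes of nuclear RNA interference and inheritance 11 were above and 1 was below, while 1 did not pass, with a median of 0.65. The highest were wago-4 and hrde-1 and the lowest nrde-3, all described above. nrde-4 was at 0.29 ± 0.31 (SD, n = 3) and passed without prep 1 (0.47, limma adjusted p = 0.0104). Without prep 2, which left 2 arrays, 7 of the 13 were above. Of 15 measured genes of Dicer, the ERI complex and the uptake of double-stranded RNA 8 were above and 2 below, with a median of 0.48. eri-9 was at 1.04 ± 0.31 and the Dicer gene dcr-1 at 1.04 ± 0.23. The X-linked genes sid-5 and rsd-3, which act in the spread of RNA interference between cells, were below the reference at −0.87 ± 0.27 and −0.93 ± 0.20. Other genes of uptake and spread were not called below it. sid-1, the gene of a double-stranded RNA channel, was above at 0.92 ± 0.16 and rsd-6 above at 0.97 ± 0.25. The X-linked sid-3 was at 0.33 ± 0.26 and passed only with chromosomes centred (0.55, limma adjusted p = 0.0169). rsd-2 at 0.17 ± 0.09 and sid-2 at −0.03 ± 0.10 did not pass.

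Of 10 genes of the microRNA machinery 5 were above and 1 below, with a median of 0.54. alg-5 and dcr-1 were the highest, and ain-1, an X-linked partner of the microRNA Argonautes, was below at −0.98 ± 0.17 (SD, n = 3), with both of its probes at that level. Of 7 measured genes of the P granule scaffold 6 were above and 0 below, with a median of 1.92, from 0.23 ± 0.38 for pgl-2, which did not pass, and 0.88 ± 0.30 for glh-3 up to 2.20 ± 0.29 for glh-2 and 2.52 ± 0.64 for glh-1. The differences between the medians of these groups were not tested.

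Position was not used in the choice of the genes. Of the 10, 8 lie on chromosome I, which holds 13.6% of the measured genes with a chromosome, against 1 on chromosome III (mut-7) and 1 on IV (csr-1). In gene order, rde-3, ekl-1, wago-1, rde-2, prg-1, ego-1 and drh-3 lie within 332 protein-coding genes, 11.5% of those on chromosome I, and mut-16 lies 510 genes beyond drh-3. Within the stretch, 10 protein-coding genes separate prg-1 from ego-1, and 12 separate wago-1 from rde-2. Genes of chromosome I had a median log2 ratio of 0.17, and 33.7% of them were called above the reference. Against the genes of its own chromosome, prg-1 was above 97.7%, wago-1 above 97.5%, csr-1 above 93.3% and rde-2 above 60.7%. With each chromosome centred on its median, 8 of the 10 genes were called above the reference. Over the whole array, fewer genes were called above with that centring than the 3278 without it. The share of 33.7% for chromosome I comes from the ratios without that centring, so it is not the background for this count.

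**Figure D4:**
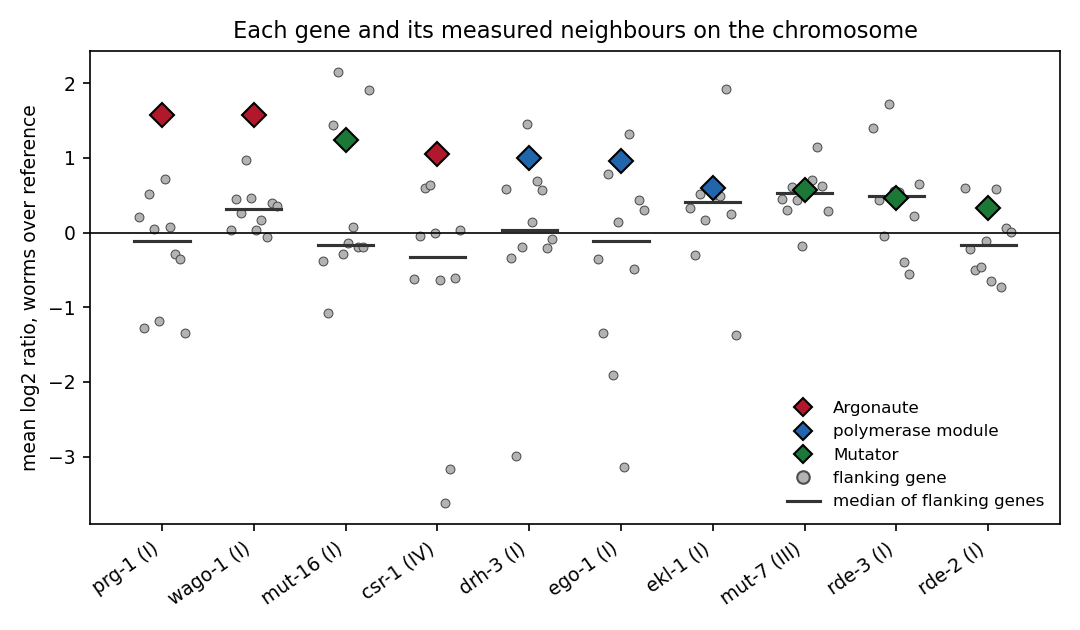
Mean log2 ratio (vertical axis) of each of the 10 genes (diamonds, coloured by role, chromosome in brackets) and of the 10 nearest measured genes around it, 5 on each side (grey points, black bar for their median). prg-1, wago-1 and csr-1 lie above all 10 of their neighbours, while mut-7 and rde-3 lie in the middle of theirs.

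The nearest measured genes, 5 on each side, show how local the ratios were. prg-1, wago-1 and csr-1 were each higher than all 10 of their neighbours, whose medians were −0.12, 0.31 and −0.33. drh-3 and ego-1 were higher than 9 of 10, ekl-1 and rde-2 than 8, mut-16 than 7, and mut-7 and rde-3 than 5. The mean of 9 of the 10 genes was above the median of its neighbours, the exception being rde-3 (0.46 against 0.49). Of the 98 different neighbours 36 were called above the reference and 20 below. Those above make up 36.7%, against 33.7% of the genes of chromosome I, where most of these neighbours lie, 32.5% of those of III and 26.7% of those of IV. The gene next to ego-1 on the far side from rrf-1, F26A3.4, was at −3.14, so strongly opposite ratios lay side by side on the chromosome. Of the 10 neighbours of mut-7, 7 were above the reference, with a median of 0.53 and a range of −0.18 to 1.14.

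Outside the lists, the genes nearest to the mean profile of the 10 genes over the 3 preps (0.92, 0.99 and 0.89) were F57B9.3, cee-1, rpl-23A.2, dnj-22 and klc-1. Nearness was the Euclidean distance over the 3 log2 ratios, which was 0.03 for F57B9.3 and 0.06 for klc-1. Their means ran from 0.91 to 0.95. None of the 10 genes was as near to that mean profile as these, so the profile describes the middle of the group and no single gene of it.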

How the data were processed

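The authors deposited 1 log2 ratio per probe for each of 3 two-colour arrays; the base was read from the values, since 2 to their power fell on steps of 0.001 for 100% of ratios under 1 (tolerance 0.01 of a step). The sources used here do not give the dyes, background correction, normalization, tools or build, and spot intensities were not analysed, so no dim-spot filter was possible. A dye effect cannot be told apart from a difference from the reference.

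Ratios were used as deposited. Probes with a value on all arrays (19664 of 20000) were named from the platform annotation (15655 probes had 1 symbol, 198 several, 4147 were unlisted), and probes of a gene were averaged (414 genes). Chromosomes and gene order are those of RefSeq's WBcel235 table; coordinates are not printed, since the array's build is not stated.

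The test was limma 3.58.1 in R 4.3.3 (lmFit on an intercept, eBayes), two-sided against 0, with Benjamini-Hochberg adjustment at 0.05 over 15078 genes (prior SD 0.25 with 7.36 degrees of freedom) and moderated 95% intervals. The reference's own spread is not in it. The steps were tested on simulated data.

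The 10 genes and the lists were chosen with earlier results of these data known. Named were the 10 genes, all measured Argonaute, polymerase-partner and Mutator genes, the 2 highest and 2 lowest of each other pathway list and the 5 nearest profiles. Markers, neighbours, sid-1, sid-2, sid-3, rsd-2 and rsd-6 were named after their values were seen. Alternatives were centred, scaled and quantile normalized arrays, centred blocks of 400 probes, centred chromosomes, probes on at least 2 arrays, robust eBayes, no moderation, a 1.2-fold margin, probes in place of genes, and each prep left out.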

Additional observations from a re-analysis of the deposited data

How the results depend on the processing

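The mean log2 ratios of the 10 genes stayed above 0 under all 13 alternatives. The count of genes called above the reference among the 10 was 9, with 6 to 9 under the alternatives that kept all arrays and the moderated test, and 7 to 10 with a prep left out. Over the whole array that count was 3278, and 2277 to 3833 with a prep left out. Under the alternatives that kept all arrays and the moderated test it was 1973 to 3293, apart from probes in place of genes, with 4063 probes. Calls rested on the variance shared over genes: without moderation an ordinary one-sample test with Benjamini-Hochberg adjustment called 0 of the 10, 0 genes above and 0 below over the array, and 0 in every list, while at an unadjusted p of 0.05 it had 10 of the 10 above, and 2587 genes above and 2813 below. For prg-1, wago-1, mut-16, csr-1, drh-3 and ego-1 that was the only alternative that ended the call, with adjusted p of 0.0726 to 0.0985. Against a 1.2-fold margin, 1973 genes were above and 2087 below, 2 of the Mutator list above, 6 of the nuclear list above, and 0 of the nuclear list and 0 Argonautes below, where nrde-3 had been the gene called in both. Centred chromosomes left 7 of the nuclear list above, and probes in place of genes counted 2 microRNA probes below, both of ain-1. With a prep left out, 2 to 5 polymerase-list genes, 3 to 6 Mutator-list genes and 7 to 11 nuclear-list genes were above. Of genes that did not pass, sago-1 (0.0997) and henn-1 (−0.0472) turned sign with centred blocks, henn-1 (−0.0638) with centred chromosomes, and rrf-2 ran from −0.102 to 0.656 with a prep left out; the cause was not tested. No paired analysis was possible because the preps form 1 group. Signal over background is unknown, so dim probes could not be told from others.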
